A study of Mus musculus with 83 samples.

Results

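The miR-106a-363 cluster is a group of 6 miRNA genes on the mouse X chromosome: Mir106a, Mir18b, Mir20b, Mir19b-2, Mir92-2 and Mir363. These 6 of the 32101 features in the table were taken by name, and they were selected on measured values, the reads being lower in Dnmt1 KO cells than in control cells on days 3, 6 and 9 and in AGO2 immunoprecipitates. The genotype values of those days and of the AGO2 libraries are therefore given as a description, without a test, while days 1, 11 and 25, the change over time in control cells and the ratios to paralogues on days 1, 11 and 25 were tested. MicroRNAs are cut from hairpin transcripts to strands of about the length of the reads sequenced here, are loaded into Argonaute proteins such as AGO2, and pair through their seed with messenger RNAs, which are then repressed. The cluster is a paralogue of the miR-17-92 cluster, and the related miRNAs are known from pluripotent and dividing cells, where targets include brakes on the cell cycle.

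The series sequenced small RNAs of mouse embryonic stem cells (ESCs) during loss of DNMT1, the enzyme that copies CpG methylation to the new DNA strand. The 36 libraries of the time course comprised 3 control and 3 Dnmt1 KO libraries on each of days 1, 3, 6, 9, 11 and 25; the labels give the strain E14, whereas the study's methods describe Dnmt1 loxP/loxP cells of C57BL/6 background, deleted by a tamoxifen-induced Cre and grown in serum and LIF, with or without feeder cells. A further 8 libraries held RNA bound to AGO2 (4 control and 4 Dnmt1 KO). The study's results section places the pull-down on day 9 after deletion, and the labels give no day. Another 2 libraries were labelled "none", a word the labels do not explain, and 7 came from primordial germ cells (PGC) of male and female embryos at E13.5 or E14.5. A further 30 libraries carried the names of the libraries of days 1 to 11 with an R1 suffix, as did 3 of the PGC libraries. The labels call the replicates of each group biological replicates. The genotype tags contradicted the titles in all 8 AGO2 libraries, in both libraries labelled none and in the R1-suffixed libraries of days 1 to 9, but in none of the 36 libraries of the time course. Groups here follow the titles, and every genotype difference given for AGO2 would turn direction if the tags were right.

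Library totals were 870481 to 6239009 reads on days 1 to 11, 521066 to 815523 on day 25, 11497718 to 25423038 in AGO2 control and 1152390 to 11520133 in AGO2 Dnmt1 KO libraries. Among 48 pairs of replicates no pair agreed within sampling noise (chi-square per degree of freedom, 2.15 at the lowest). Small RNA reads do not check the deletion: the Dnmt1 gene held 23.1 to 95.02 reads per 1000000 (RPM) in control and 18.1 to 64.3 RPM in Dnmt1 KO libraries of the time course. With the R1 suffix, 95.4% to 96.9% of the recovered read counts in the time course were even, against 39.0% to 46.2% in the libraries without the suffix. In 20 of the 30 suffixed libraries the library without the suffix that correlated best over miRNA features was the namesake. The suffixed libraries were kept out of the main tests and are not counted as further replicates of them. Those of the time course were fitted apart as an alternative only. Markers of ESCs, the miR-290 and miR-302 clusters, summed to 110780 to 209785 RPM in every group of the time course. All groups thus carried miRNAs of the labelled cell type. The sum pools both clusters and does not show that the 5 miR-302 members fell in control cells between day 1 and day 11 (log2 -3.51 to -2.91).

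The 6 hairpins lie head to tail within 875 bases of the minus strand of chromosome X (chrX:50094870-50095744, NCBIM37), in the order of transcription Mir106a (50095680 to 50095744), Mir18b (50095508 to 50095590), Mir20b (50095290 to 50095369), Mir19b-2 (50095160 to 50095243), Mir92-2 (50095015 to 50095105) and Mir363 (50094870 to 50094944). The annotation lists each as a miRNA gene of 1 exon. The RefSeq hairpin of each of the 6 was identical to the NCBIM37 genome at these positions. Upstream, the long noncoding RNA gene Kis2 (50095740 to 50098137) overlaps the Mir106a feature by 5 bases. In the 36 time course libraries Kis2 held 91.0% to 98.5% as many reads as Mir106a, so its values were those of Mir106a and it is not counted as separate.

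The sequences are shown because they decide both which targets the members could share and which members the reads can tell from their paralogues. The mature guide strands (RefSeq, GRCm38.p6 table, 5′ to 3′, seed bases 2 to 8 in capitals) fall into 4 seeds.
miR-106a-5p: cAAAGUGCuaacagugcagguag
miR-20b-5p: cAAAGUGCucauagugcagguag
miR-18b-5p: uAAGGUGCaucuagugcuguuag
miR-19b-3p: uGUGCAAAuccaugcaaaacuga
miR-92a-3p: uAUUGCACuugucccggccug
miR-363-3p: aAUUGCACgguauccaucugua

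Mir106a and Mir20b share the seed AAAGUGC, and Mir92-2 and Mir363 share AUUGCAC, while Mir18b and Mir19b-2 each stand alone within the cluster. In the table, 12 further miRNA features carry 1 of these 4 seeds, among them Mir17, Mir20a, Mir18, Mir19a, Mir19b-1 and Mir92-1 of miR-17-92, Mir106b, Mir93 and Mir25 of miR-106b-25, and Mir367 of the miR-302 cluster. The closest paralogues differ by a few bases outside the seed.
miR-17-5p: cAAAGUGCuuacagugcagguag
miR-20a-5p: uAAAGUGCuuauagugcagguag
miR-18a-5p: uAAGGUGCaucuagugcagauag

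Counted from 1 at the 5′ end of the member, miR-106a-5p differed from miR-17-5p by A10U, miR-20b-5p from miR-20a-5p by C1U and C10U, and miR-18b-5p from miR-18a-5p by U18A and U20A. The mature strands of Mir19b-2 and Mir92-2 were identical to those of Mir19b-1 and Mir92-1. These were also the only members that shared a run of 20 bases with another hairpin. A read of the mature strand of either cannot be placed on 1 of its loci, and how the authors' alignment treated such reads is not stated. The values of Mir19b-2 and Mir92-2 are therefore uncertain and may hold reads of both loci in an unknown ratio. Mir106a, Mir18b, Mir20b and Mir363 are free of this limit at the length of 20 bases.

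Mir92-2 had by far the highest values of the 6, though these may hold an unknown share of reads of Mir92-1, whose mature strand is identical. Per length, in RPM per kilobase (RPKM), the control libraries of day 1 averaged 364632 for Mir92-2, 39632 for Mir363, 17427 for Mir20b, 12207 for Mir106a, 6447 for Mir18b and 198 for Mir19b-2. This order held in 33 of the 36 time course libraries on the RPKM scale. In the other 3, Mir18b exceeded Mir106a, and in 1 of these also Mir20b. The 6 members took 6.87% ± 0.835 (SD, n = 3) of the RPM over miRNA features in control cells on day 1, and the 5 members other than Mir92-2 took 1.01% ± 0.0400 of it. Across the 36 libraries the log2 levels of Mir106a, Mir20b and Mir363 ran close together (Pearson r 0.955 to 0.959 for the 3 pairs), while pairs with Mir19b-2 gave 0.548 to 0.828; the libraries share days and genotypes, so these values are a description.

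**Figure D1:**
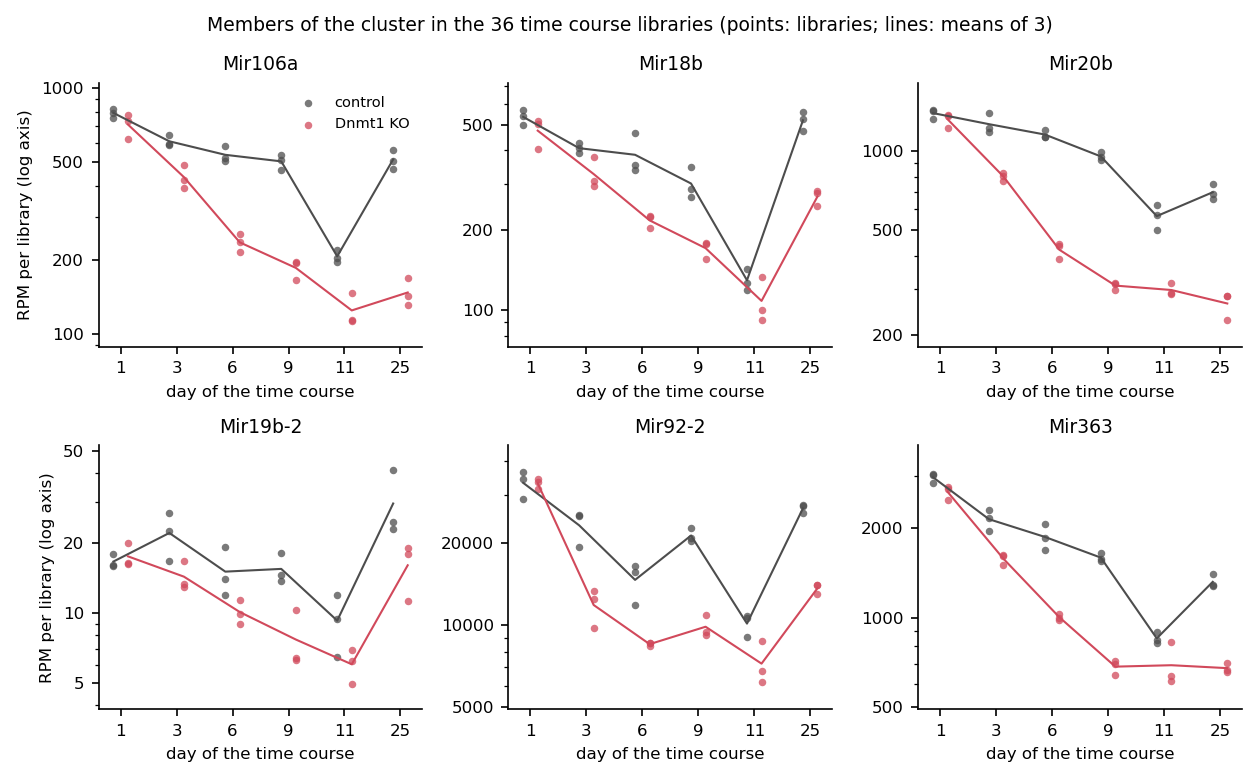
RPM of each member in the 36 libraries of the time course (log axis; 1 point per library, lines join the means of 3; the days are drawn evenly spaced). Control levels (grey) fell to their lowest on day 11 in all 6 panels and were higher again on day 25. Dnmt1 KO libraries (red) of days 3, 6, 9 and 25 lay below every control library of the same day in all 6 panels. Of all features, 13.3%, 12.8% and 22.8% lay wholly lower on days 3, 6 and 9, and the share on day 25 was not determined.

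The first question was how the cluster behaved in cells that keep Dnmt1. In control cells all 6 members fell between day 1 and day 11, by 0.83 to 2.05 on the log2 scale, and 4 of the 6 were still lower on day 25. A member counts as called when limma's p, adjusted by Benjamini-Hochberg over the 2582 features tested, was below 0.05. All 6 were called lower on day 11 than on day 1, against 18.3% of all features. The median log2 difference was -1.77 for the members and -0.01 for all features. The labels give no sequencing run, so day and run cannot be told apart in this comparison.

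Mir106a, of the cell-cycle seed family of miR-17, gave 827, 759 and 795 RPM in the control libraries of day 1 and 220.0, 196 and 205 RPM on day 11. The days did not overlap, and the log2 difference was -1.95 ± 0.12 (SE, adjusted p = 2.23e-16). Mir18b gave 539, 497 and 570 RPM on day 1 and 143, 119 and 126 RPM on day 11. It showed the widest fall of the 6, with a log2 difference of -2.05 ± 0.13 (adjusted p = 1.40e-15). Mir20b, with the same seed as Mir106a, fell from 1425, 1319 and 1438 RPM to 625, 502 and 571 RPM. Its log2 difference of -1.32 ± 0.10 (adjusted p = 5.12e-14) was smaller than that of Mir106a.

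Mir363, whose seed is shared with miR-92a and miR-25, went from 3017, 3057 and 2843 RPM on day 1 to 818, 838 and 898 RPM on day 11. The log2 difference was -1.82 ± 0.10 (adjusted p = 6.62e-18). Mir92-2 went from 36257, 34290 and 28998 RPM to 9021, 10603 and 10756 RPM, a log2 difference of -1.72 ± 0.12 (adjusted p = 6.97e-15). Again no day 11 library reached a day 1 library. Mir19b-2 was read far less often, at 17.9, 15.9 and 16.1 RPM on day 1 (14 to 37 reads) and 9.43, 6.44 and 11.9 RPM on day 11. Its difference of -0.83 ± 0.24 (adjusted p = 0.00670) was lost without control library 2 of day 11 (-0.61, adjusted p = 0.0809) and in the R1-suffixed libraries (-0.88, adjusted p = 0.274).

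By day 25 control cells had regained part of these levels, and not evenly. Mir106a stood at 507, 562 and 471 RPM, Mir20b at 688, 747 and 657 RPM and Mir363 at 1275, 1288 and 1398 RPM. These 3 remained below day 1, with log2 differences of -0.76 ± 0.12, -1.13 ± 0.10 and -1.30 ± 0.10. Mir18b, at 527, 558 and 472 RPM, overlapped its day 1 values (-0.18 ± 0.13, adjusted p = 0.276). Mir92-2, at 25666, 27415 and 27188 RPM, was lower than on day 1 by a smaller step (-0.44 ± 0.12, adjusted p = 0.00219; -0.29, adjusted p = 0.058, and no longer called with RPM over miRNA features only), and Mir19b-2, at 41.2, 23.0 and 24.5 RPM, was called higher (0.62 ± 0.24, adjusted p = 0.0327). That last call was lost without control library 1 of day 25 (0.36, adjusted p = 0.255) or library 2 or 3 of day 1 (adjusted p = 0.0750 and 0.0714), and also with median-ratio size factors (0.0637), voom on the reads (0.0757), the compared libraries alone (0.0769) and no filter (0.113). In all, 4 of 6 members were called lower on day 25 than on day 1, against 28.1% of all features.

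Markers of mesenchymal and differentiated cells moved with this last comparison. Mir143, Mir145, Mir199a-1, Mir199a-2 and Mir214 together summed to 9177 to 11333 RPM in control libraries of day 1, 10596 to 11209 RPM on day 11 and 954 to 1049.6 RPM on day 25, when Mir199a-1 and Mir199a-2 were at 0; all 4 that could be tested were called lower on day 25 than on day 1. The let-7 miRNAs, 5 of 6 in the table, summed to 897 to 914 RPM on day 1, 1009 to 1038 RPM on day 11 and 31.9 to 62.7 RPM on day 25. The part of these cells in the day 25 values was not tested. Between day 1 and day 11, 1 of the 4 tested mesenchymal markers was called lower (Mir145, -0.42 ± 0.16). In bulk RNA, fewer cells of a type and less RNA per cell cannot be told apart.

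Ordered by mean RPM, the control levels of Mir106a ran day 1, 3, 6, 25, 9 and 11, in which day 25 overlapped days 6 and 9. For Mir20b the order was day 1, 3, 6, 9, 25 and 11, with overlap between days 1 and 3 and between days 3 and 6, and for Mir363 it was the same with overlap of days 3 and 6 alone. Mir92-2 ran day 1, 25, 3, 9, 6 and 11 with overlap of days 3 and 9, and Mir18b ran day 1, 25, 3, 6, 9 and 11 with overlap of days 1 and 25 and of neighbours among days 3, 6 and 9. Each pair of neighbours overlapped for Mir19b-2. Control cells had their lowest mean on day 11 for all 6.

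Of the miR-17-92 paralogues, 2 of 6 were called lower on day 11 than on day 1 (Mir18, -0.47 ± 0.14, and Mir19b-1, -1.12 ± 0.23), and their median was -0.22. Mir17 gave -0.08 ± 0.09 (adjusted p = 0.562), Mir20a 0.02 ± 0.12 (adjusted p = 0.914) and Mir92-1 -0.20 ± 0.09 (adjusted p = 0.0734). Within libraries, Mir20b exceeded Mir20a 1.31-fold on day 1 (1.28 to 1.35) and reached 0.518-fold of it on day 11 (0.518 to 0.519). The ratio of Mir106a to Mir17 moved from 0.551 (0.520 to 0.572) to 0.150 (0.147 to 0.152), and that of Mir92-2 to Mir92-1, subject to the shared mature strand, from 0.773 (0.741 to 0.796) to 0.269 (0.252 to 0.283). None of these ranges overlapped between the days.

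**Figure D2:**
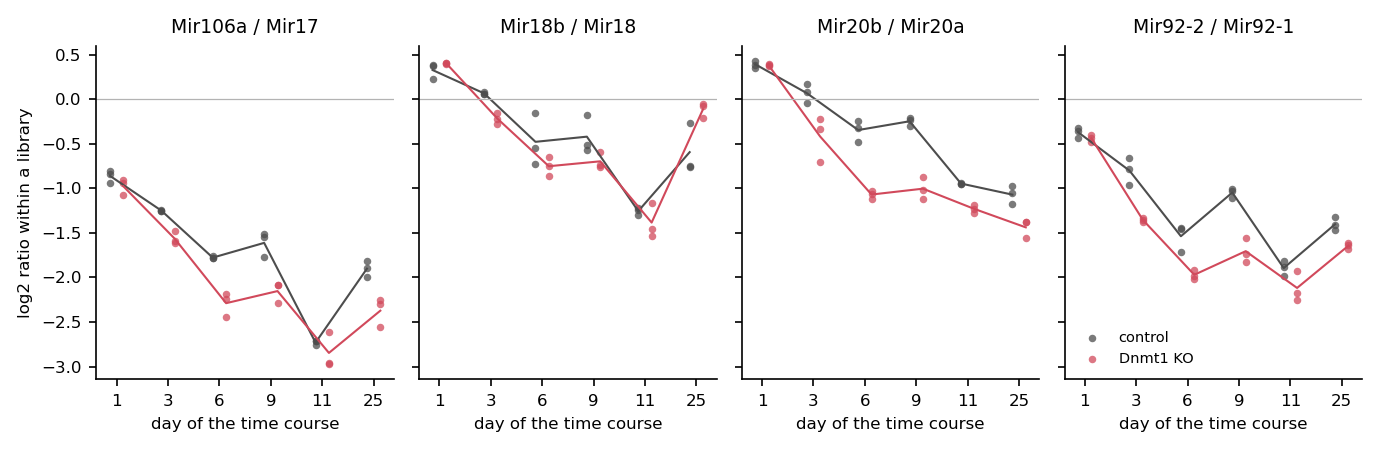
Log2 ratio of a member to its miR-17-92 paralogue within each library of the time course (1 point per library, lines join means of 3; days evenly spaced). Mature reads of Mir92-2 and Mir92-1 cannot be told apart. The ratio of Mir20b to Mir20a fell in control cells (grey) from 0.39 on day 1 to -0.95 on day 11, and the Dnmt1 KO libraries (red) of days 6 and 9 lay below every control library of the same day in the panels of Mir106a, Mir20b and Mir92-2.

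The genotype comparison asked whether loss of Dnmt1 changed the cluster. No member was called between genotypes on day 1. In Dnmt1 KO, 3 of 6 were called lower on day 11, against 2.36% of all features. All 6 were called lower on day 25, against 17.0% of all features, and the call of Mir19b-2 was lost under several alternatives. The lower values of days 3, 6 and 9 chose the members and are no part of this result. On day 1 none of the 6 members was called in limma's test in either direction, against 0.930% of all features called lower. At an unadjusted p below 0.05, 2 of the 6 were lower (Mir106a, -0.25 ± 0.12, and Mir363, -0.25 ± 0.10), against 5.15% of all features at that unadjusted threshold, and with limma's voom on the reads 0 were called. The median log2 difference of the members was -0.21 and that of all features 0.02. All 6 differences lay below 0, but those of Mir19b-2 (0.13) and Mir92-2 (0.07) turned with RPM over miRNA features only, and that of Mir19b-2 (0.07) with library totals. Mir363 gave 3017, 3057 and 2843 RPM in control and 2490, 2758 and 2719 RPM in Dnmt1 KO on this day, and it was the 1 member without overlap between genotypes, where 4.65% of all features lay wholly lower.

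The values of days 3, 6 and 9 are those that chose the members. On day 3 Mir20b gave 1393, 1180.4 and 1223 RPM in control and 824, 770 and 806 RPM in Dnmt1 KO libraries, and Mir92-2 gave 25048, 25264 and 19283 RPM against 9779, 12482 and 13277 RPM. The log2 differences were -0.64 ± 0.10 and -0.95 ± 0.12, and those of the other 4 members ran from -0.56 to -0.31. Already on this day the ranges of the genotypes did not overlap for any of the 6 members; 13.3% of all features lay wholly lower in Dnmt1 KO, and nothing is read from this count since the rule used it.

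On day 6 Mir20b had 1135, 1130.0 and 1202 RPM in control and 442, 388 and 435 RPM in Dnmt1 KO, which is 36.5% of the control mean. Mir106a had 521, 506 and 580 RPM against 256, 237 and 215 RPM, and Mir363 had 1860, 1686 and 2065 RPM against 1028, 982 and 998 RPM. The pair with the seed AAAGUGC showed the widest gaps, at -1.56 ± 0.10 (Mir20b) and -1.29 ± 0.12 (Mir106a), followed by Mir363 (-0.9998 ± 0.10), Mir18b (-0.91 ± 0.13), Mir92-2 (-0.87 ± 0.12) and Mir19b-2 (-0.61 ± 0.24). The 6 did not overlap between genotypes, as did 12.8% of all features in that direction.

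On day 9 Mir20b had 994, 923 and 946 RPM in control and 316, 296 and 312 RPM in Dnmt1 KO, or 32.3% of the control mean. Mir106a stood at 36.9%, Mir363 at 42.9%, Mir92-2 at 46.4%, Mir19b-2 at 49.7% and Mir18b at 57.1% of it. The log2 differences were -1.51 for Mir20b, -1.32 for Mir106a, -1.10 for Mir363, -0.99 for Mir92-2, -0.85 for Mir19b-2 and -0.68 for Mir18b. Again no member overlapped between genotypes, and 22.8% of all features lay wholly lower. On these 3 days the mesenchymal markers summed to 10331 to 10698 RPM in control and 15501 to 17839 RPM in Dnmt1 KO (day 3), 6132 to 7144 against 11242 to 12515 RPM (day 6) and 10984 to 14913 against 20919 to 22910 RPM (day 9), with Mir199a-1 at 0 throughout. The let-7 sums on day 9 were 1229 to 1641 RPM in control and 2142 to 2485 RPM in Dnmt1 KO. The miR-302 cluster, a marker of ESCs, was also lower in Dnmt1 KO, with median log2 differences over its 5 members of -0.66 (day 3), -1.86 (day 6) and -1.47 (day 9). The miR-290 cluster, the other ESC marker, did not share this fall. Its medians over 7 members were 0.10 (day 3), 0.10 (day 6) and -0.05 (day 9). The part of any of these cell types in the genotype differences was not tested.

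**Figure D3:**
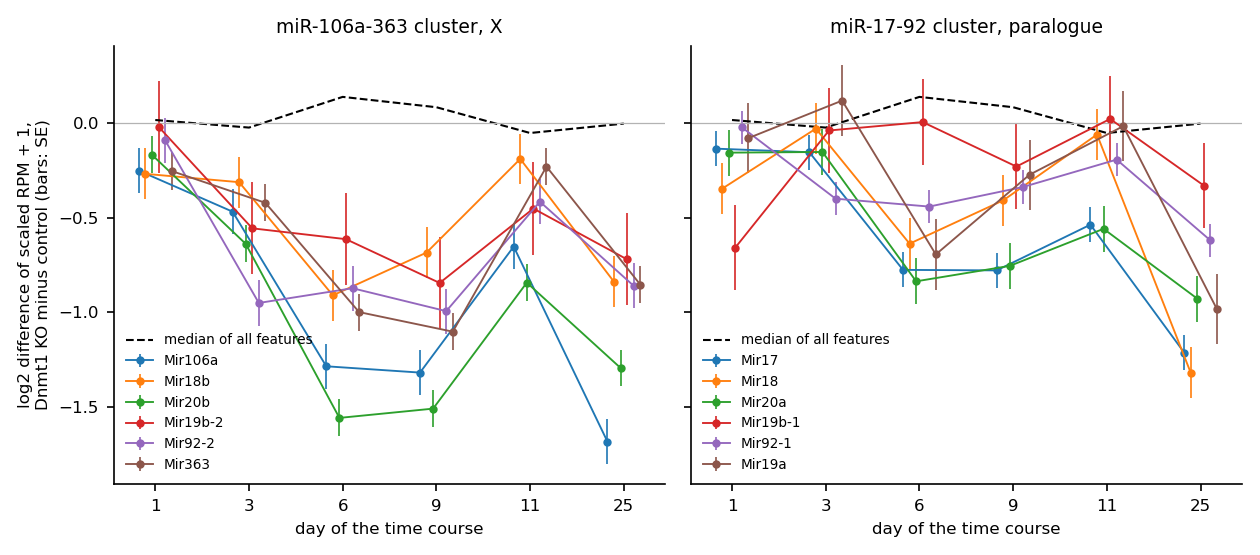
Log2 difference of scaled RPM + 1 between Dnmt1 KO and control by day, for the 6 members (left) and the 6 members of miR-17-92 (right), with SE bars; the dashed line is the median of the 2582 features tested. The X cluster lay at -0.61 or below on days 6 and 9, at -0.84 to -0.19 on day 11 and at -1.69 to -0.72 on day 25; the paralogues ran from -1.32 to -0.33 on day 25.

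On day 11, which the choice of members did not use, 3 of the 6 members were called lower in Dnmt1 KO, against 2.36% of all features. Mir20b gave 625, 502 and 571 RPM in control and 316, 288 and 286 RPM in Dnmt1 KO libraries. The groups did not overlap and the log2 difference was -0.84 ± 0.10 (adjusted p = 5.48e-09). Mir106a gave 220.0, 196 and 205 RPM against 148, 114 and 113 RPM, again without overlap, with a log2 difference of -0.65 ± 0.12 (adjusted p = 7.86e-05). Mir92-2 gave 9021, 10603 and 10756 RPM against 8720.0, 6188 and 6770 RPM, with the highest Dnmt1 KO library just under the lowest control library (-0.42 ± 0.12, adjusted p = 0.0187). This call was lost without Dnmt1 KO library 2 or 3 (adjusted p = 0.207 and 0.231) or control library 2 or 3 (0.0838 and 0.0910).

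Mir363 gave 818, 838 and 898 RPM in control and 826, 613 and 636 RPM in Dnmt1 KO on day 11. One Dnmt1 KO library stood inside the control range and the other two well below it (-0.23 ± 0.10, adjusted p = 0.187; -0.39, adjusted p = 0.00419, without Dnmt1 KO library 1). It was also called lower with RPM over miRNA features only (-0.33, adjusted p = 0.0197) and with library totals (-0.31, adjusted p = 0.0209). Mir18b (-0.19 ± 0.13, adjusted p = 0.569) and Mir19b-2 (-0.45 ± 0.24, adjusted p = 0.363) overlapped between genotypes. The median of the members was -0.43 and that of all features -0.05. Mesenchymal markers summed to 10596 to 11209 RPM in control and 12417 to 14632 RPM in Dnmt1 KO on this day, and 2 of the 4 tested, Mir143 and Mir145, were called higher; their part was not tested.

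On day 25 all 6 members were called lower in Dnmt1 KO, against 17.0% of all features. Of the miR-290 cluster, a marker of ESCs, 5 of 7 members were also called lower in Dnmt1 KO on this day (median -0.39, all 7 below 0), and their part in the members' values was not tested. Mir106a gave 507, 562 and 471 RPM in control and 143, 169 and 131 RPM in Dnmt1 KO, the widest gap of the cluster on this day (-1.69 ± 0.12, adjusted p = 4.13e-15). Mir20b gave 688, 747 and 657 RPM against 281, 282 and 227 RPM (-1.30 ± 0.10, adjusted p = 2.50e-14). In both genes no Dnmt1 KO library came near the lowest control value, and the Dnmt1 KO means were 28.7% and 37.8% of the control means. Mir92-2 gave 25666, 27415 and 27188 RPM against 13992, 12984 and 13976 RPM (-0.86 ± 0.12, adjusted p = 2.61e-07), and Mir363 gave 1275, 1288 and 1398 RPM against 658, 703 and 667 RPM (-0.85 ± 0.10, adjusted p = 3.53e-09). Mir18b gave 527, 558 and 472 RPM against 277, 282 and 246 RPM (-0.84 ± 0.13, adjusted p = 3.93e-06). Each of these 5 members was separated between genotypes, but the share of all features so separated was not determined for this day.

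Mir19b-2 was read 7 to 23 times per library on day 25, at 41.2, 23.0 and 24.5 RPM in control and 11.25, 17.9 and 19.0 RPM in Dnmt1 KO. The groups did not overlap, but its call (-0.72 ± 0.24, adjusted p = 0.0193) was lost with voom on the reads (adjusted p = 0.214), with the compared libraries alone (0.15), with no filter (0.0656) and without control library 1 (adjusted p = 0.151) or Dnmt1 KO library 1 (adjusted p = 0.146). On this day the mesenchymal markers summed to 954 to 1049.6 RPM in control and 1247 to 1292 RPM in Dnmt1 KO, the lowest of the time course in both genotypes, with 3 of the 4 tested called higher and 1 lower in Dnmt1 KO. The let-7 sums were 31.9 to 62.7 and 36.01 to 46.6 RPM. The part of these cells in the day 25 differences was not tested.

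The gap between genotypes was wider on day 25 than on day 11 for Mir106a (difference of the differences -1.03 ± 0.17, adjusted p = 1.01e-05), Mir18b (-0.65 ± 0.19, adjusted p = 0.0116), Mir363 (-0.62 ± 0.14, adjusted p = 0.000887) and Mir20b (-0.45 ± 0.14, adjusted p = 0.0167). This interaction was called lower for 4 of the 6 members and for 9.84% of all features. The widening was not particular to the cluster. It was also called lower for 4 of 6 miR-17-92 members (median -0.55, beside -0.54 for the X cluster) and 1 of 3 miR-106b-25 members (-0.30). Of the ESC markers, 4 of 5 miR-302 members (-0.92) and 2 of 7 miR-290 members (-0.37) were called lower. Within the X cluster the interaction was not called for Mir92-2 (-0.45 ± 0.17, adjusted p = 0.0567) or Mir19b-2 (-0.27 ± 0.34, adjusted p = 0.631). Without Dnmt1 KO library 1 of day 11, Mir18b (-0.47, adjusted p = 0.0775) and Mir20b (-0.38, adjusted p = 0.0659) were no longer called, which left 2 members, and Mir20b was also lost without control library 2 of day 11 (-0.41, adjusted p = 0.0549), with voom on the reads (adjusted p = 0.0597), with the compared libraries alone (0.0613) and with no filter (0.0775), which also lost Mir18b (0.0814). Mir92-2 was called when any of 7 libraries was left out (adjusted p = 0.0138 to 0.0382), and with median-ratio size factors (0.0293), at least 10 reads in every library (0.0401), library totals (0.0416) or a pseudocount of 10 RPM (0.0426).

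Mean levels over the 12 groups placed the Dnmt1 KO libraries of days 9, 11 and 25 at the bottom for Mir20b and Mir363. The Dnmt1 KO mean of Mir20b was 308 RPM ± 10.4 on day 9, 296 ± 16.9 on day 11 and 264 ± 31.3 on day 25 (SD, n = 3), and days 9 and 11 overlapped. Mir363 had 684 ± 39.2, 691 ± 117 and 676 ± 24.1 RPM on these days, with overlap throughout. Mir18b and Mir92-2 instead stood higher on day 25 than on day 11 in Dnmt1 KO libraries, at 268 ± 19.1 against 108 ± 22.2 RPM and 13651 ± 577 against 7226 ± 1326 RPM, without overlap.

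Members were also set against their paralogue in the same library, which removes any scaling between libraries. Over days 1, 11 and 25 together, 6 pairs were compared by an exact permutation of genotype within day (8000 arrangements, two-sided, smallest possible p = 0.00025, p-values not adjusted). The log2 ratio was lower in Dnmt1 KO for Mir20b to Mir20a (-0.22, exact p = 0.002), Mir92-2 to Mir92-1 (-0.18, exact p = 0.002), Mir106a to Mir17 (-0.23, exact p = 0.00675) and Mir363 to Mir92-1 (-0.17, exact p = 0.0085). Of the 9 Dnmt1 KO libraries, 6, 7, 7 and 8 respectively lay below every control library of their day. Mir92-2 and Mir92-1 have the same mature strand, so their ratio may hold only how such reads were placed. The ratio of Mir363 has the same uncertain denominator, Mir92-1. The ratio of Mir18b to Mir18 (0.14, exact p = 0.168) and that of Mir19b-2 to Mir19b-1 (-0.07, exact p = 0.713) did not pass. Mir18b to Mir18 changed direction between days, at 0.08 on day 1, -0.13 on day 11 and 0.48 on day 25.

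The paralogues were also lower in Dnmt1 KO on day 25, when 5 of 6 miR-17-92 members and 3 of 3 miR-106b-25 members were called lower, with medians of -0.96 and -0.60 beside -0.86 for the X cluster. Mir17 gave -1.21 ± 0.09, Mir18 -1.32 ± 0.14, Mir20a -0.93 ± 0.12, Mir92-1 -0.62 ± 0.09 and Mir93 -1.60 ± 0.08. On day 11, 2 of 6 (Mir17, -0.54 ± 0.09, and Mir20a, -0.56 ± 0.12) and 2 of 3 (Mir93, -0.75 ± 0.08, and Mir106b, -0.35 ± 0.09) were called lower. Both called miR-17-92 members and both miR-106b-25 members carry the seed AAAGUGC of Mir106a and Mir20b. As a description, the paralogues also tended lower in Dnmt1 KO on days 3, 6 and 9. The miR-17-92 medians were -0.09, -0.67 and -0.37 and those of miR-106b-25 were -0.05, -0.47 and -0.48. The X cluster had -0.51, -0.96 and -1.05 on these days. Also as a description, the ratio of Mir20b to Mir20a differed by -0.49, -0.72 and -0.76 on days 3, 6 and 9. That of Mir106a to Mir17 differed by -0.31, -0.51 and -0.54, and that of Mir92-2 to Mir92-1, subject to the shared mature strand, by -0.55, -0.43 and -0.66.

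Within 1 Mb of the cluster, 8 further miRNA features were annotated: Mir717, 319 kb away, and 7 from Mir450b to Mir322, starting 305 kb away, of which 5 passed the filter (Mir450b, Mir542, Mir351, Mir503 and Mir322). In control cells between day 1 and day 11, Mir351 (-1.11 ± 0.12) and Mir322 (-0.46 ± 0.12) were called lower. In Dnmt1 KO on day 11 the same 2 were called higher (0.45 ± 0.12 and 0.84 ± 0.12), where Mir106a and Mir20b were lower. On day 25 Mir450b (-0.75 ± 0.17) and Mir542 (-0.74 ± 0.17) were called lower and Mir322 higher (0.40 ± 0.12).

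By the rule for likeness (Pearson r with the mean log2 level of the 6 members over the 36 libraries), the nearest features were Mir302c (0.916), Mir302d (0.905), Larp7 (0.904), Mir302b (0.897) and Mir302a (0.893), all on chromosome 3. The annotated Larp7 gene (127239872 to 127256266, NCBIM37) spans the Mir302 features, so its small RNA values hold their reads. The members of miR-17-92 ranged from 0.198 (Mir19b-1) to 0.7097 (Mir17) and the 5 tested X neighbours from -0.240 (Mir322) to 0.567 (Mir450b). The lowest values were those of Mir463 (-0.832), Mtmr7 (-0.822) and Mir871 (-0.803). The libraries share days and genotypes, and these values describe only how alike the patterns were. The miR-302 cluster, a marker of pluripotent cells, fell between day 1 and day 11 in control cells (5 of 5 called lower, -3.51 to -2.91) and was lower in Dnmt1 KO on day 25 (4 of 5 called, -1.29 to -0.53), whereas on day 11 the genotype differences of its 5 members ran from -0.15 to 0.27 and the lowest adjusted p was 0.413 (Mir302a). Of the miR-290 cluster, the other ESC marker, 2 of 7 members were called higher in control cells on day 11 than on day 1 and 7 of 7 on day 25 than on day 1 (median 0.70). Between genotypes 5 of its 7 members were called lower in Dnmt1 KO on day 25, as given above, and none on day 11.

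AGO2 immunoprecipitates held reads of all 6 members. In AGO2 control libraries Mir92-2 reached 57398, 59079, 51863 and 44569 RPM and Mir363 2565, 2976, 2343 and 2414 RPM, above the 3 total RNA control libraries of day 9 (20332 to 22632 and 1555 to 1655 RPM). Mir20b (580, 633, 473 and 486 RPM), Mir106a (352, 353, 255 and 222 RPM) and Mir18b (203, 198, 106 and 136 RPM) instead lay below day 9 totals. Mir19b-2 gave 15.8 to 20.45 RPM and overlapped them. MiRNA features held 99.0% ± 0.0863 (SD, n = 4) of the AGO2 control reads against 57.6% ± 0.224 (SD, n = 3) of the day 9 control reads.

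The test of AGO2 against total RNA depended on the scaling, and the part of that difference in composition was not tested. After trimmed-mean scaling all 6 members were called higher in AGO2 (log2 differences 3.203 to 5.48), but 31.4% of all features were called higher, and the median of all 1328 features was -0.88. With RPM over miRNA features only, Mir106a (-1.57, adjusted p = 5.39e-05), Mir20b (-1.60, adjusted p = 5.67e-06), Mir18b (-1.72, adjusted p = 0.00014) and Mir19b-2 (-0.51, adjusted p = 0.00943) were lower and Mir363 did not pass (-0.09, adjusted p = 0.487). Leaving out any 1 of the 3 total libraries also turned Mir106a, Mir18b and Mir20b (-1.29 to -1.06), with fewer features passing the filter. No direction is therefore read from the trimmed-mean values. The labels do not tell whether AGO2 and total libraries came from the same cultures.

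Between genotypes the AGO2 values are a description, as they chose the members. Mir20b gave 580, 633, 473 and 486 RPM in control and 315, 221, 205 and 165 RPM in Dnmt1 KO AGO2 libraries (-1.54 ± 0.21), and Mir363 gave 2565, 2976, 2343 and 2414 RPM against 1693, 1426, 1505 and 1211 RPM (-1.08 ± 0.14). Both were separated, as were 5.92% of the 456 features tested in that direction. Mir106a (352, 353, 255 and 222 against 275, 162, 109 and 104 RPM; -1.20 ± 0.32) and Mir92-2 (57398, 59079, 51863 and 44569 against 48863, 38759, 23839 and 20995 RPM; -1.02 ± 0.25) overlapped between the groups through the first Dnmt1 KO library, but within each of the 4 pairs of equal replicate number both were lower in Dnmt1 KO. Mir18b (203, 198, 106 and 136 against 201, 239, 87.5 and 80.1 RPM; -0.45 ± 0.38) and Mir19b-2 (-0.05 ± 0.24) overlapped between genotypes, and Mir18b was lower in 3 of the 4 pairs. Replicates 1 and 2 lay above 3 and 4 for Mir106a, Mir18b and Mir92-2 in both genotypes, and Dnmt1 KO replicates 1 and 2 had 1152390 and 1553877 reads. Mesenchymal markers summed to 1336 to 1831 RPM in AGO2 control and 3698 to 4367 RPM in AGO2 Dnmt1 KO libraries; their part was not tested.

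**Figure D4:**
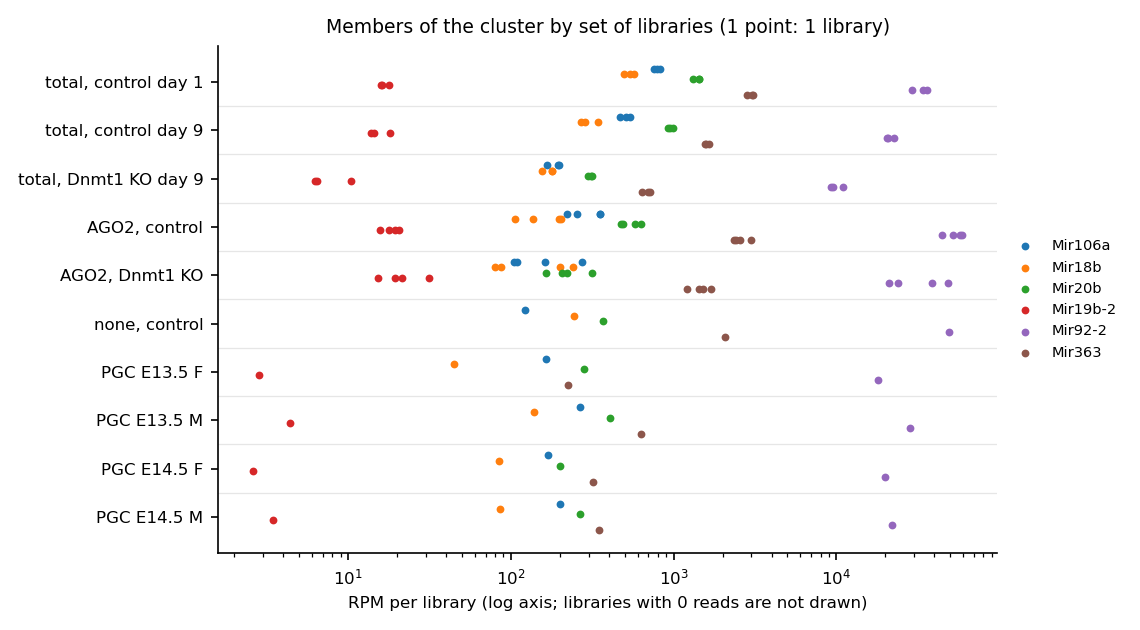
RPM of the 6 members in single libraries of total RNA, AGO2 immunoprecipitates, the control library labelled none and PGC (log axis; 1 point per library; libraries with 0 reads are not drawn). Among the libraries drawn, Mir363 ran from 225 RPM in a PGC library to 3057 RPM in a control library of day 1.

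The 2 libraries labelled none were shallow (57155 reads in control and 9830 in Dnmt1 KO) and still held the cluster. The control one gave 49339.5 RPM of Mir92-2 (95% exact Poisson interval 47535 to 51195), 2082 RPM of Mir363 (1725 to 2491) and 367 RPM of Mir20b (227 to 562). Of these the Mir92-2 value lay within the range of the AGO2 control libraries. Mir19b-2 had 0 reads in the control one, for which the same interval reaches up to 64.5 RPM. In the Dnmt1 KO one Mir92-2 had 192 reads, Mir363 had 9 and the other 4 members 1 read each. With 1 library per genotype no comparison was made, and intervals cover counting error only. Mir18b, at 245 RPM (134 to 411) in the control one, had a higher value than every AGO2 control library (106 to 203 RPM). The study's methods mention a control of beads without serum, but neither they nor the labels say whether these libraries are that control. Reads of a member in the immunoprecipitates are therefore not read as loading.

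PGC libraries carried the same 6 members in other proportions. In the 4 libraries without the suffix (1 per sex and age without replicate; values follow in the order female then male at E13.5, then the same at E14.5) Mir92-2 gave 18096, 28247, 19986 and 21937 RPM, and Mir363 gave 225 (95% exact Poisson interval 207 to 243), 633 (604 to 662), 318 (299.8 to 338) and 346 (319 to 375) RPM. Mir20b gave 282, 407, 201 and 266 RPM, Mir106a 163, 267, 170 and 199 RPM and Mir18b 44.4, 138, 84.1 and 85.3 RPM. By RPM the E13.5 male library was the highest for each of these 5 members. MiRNA features held 42.6%, 55.6%, 36.7% and 40.0% of the library totals in the same order. Of the RPM over miRNA features the 6 members took 4.42%, 5.34%, 5.66% and 5.70%, so the E13.5 male library was not the highest on that scale. Without Mir92-2 the shares were 0.168%, 0.260%, 0.211% and 0.225%. The intervals cover counting error only and say nothing of the spread between animals. Mir19b-2 had 6 to 13 reads per library (2.62 to 4.37 RPM). Within libraries Mir20b reached 0.407-fold to 0.491-fold of Mir20a (log2 -1.29 to -1.02). Control ESCs stood at 0.518-fold on day 11 (mean log2 -0.95) and at a mean log2 of -1.07 on day 25, and Dnmt1 KO cells of day 6 at -1.07. Mir363 reached 0.00208-fold to 0.00469-fold of Mir92-1, whose mature reads are not told from those of Mir92-2. This was below the lowest group mean of the time course, 0.0159-fold in Dnmt1 KO cells of day 25.

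None of the 3 PGC libraries with the R1 suffix correlated best with its namesake. The E13.5 male one held 60317 reads in all, with Mir92-2 at 48 reads and Mir20b at 1 read, and the E13.5 female one held 114631 reads. The E14.5 male one (1328606 reads) gave Mir363 at 590.1 RPM (95% exact Poisson interval 549.5 to 633) and Mir20b at 437 RPM, against 346 and 266 RPM in its namesake and 633 and 407 RPM in the E13.5 male library, and over miRNA features it correlated best with the latter (r 0.993, against 0.984 with its namesake). No result above rests on these libraries.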

How the data were processed

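Small RNA of 83 libraries was sequenced by the submitters (Illumina small RNA kit). Per the study's methods and processing notes, the authors trimmed reads with Trim Galore 0.3.5, aligned them with Bowtie2 2.2.9 to NCBIM37, kept reads of 20 to 24 nt and deposited RPKM values per annotated feature. How reads with several positions or strand were treated is not given in the sources used here. A paralogue with an identical mature strand can therefore share or exchange reads.

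RPKM times feature length gave RPM, and whole reads were recovered for 100% of values within a tolerance of 5%. Features with at least 10 RPM in at least 3 libraries entered each fit. Values were scaled by trimmed means of M-values (trims of 30% and 5%), and log2(RPM + 1) was fitted with limma 3.58.1 (trend) in R 4.3.3, with Benjamini-Hochberg adjustment over all features tested. A log2 difference on this scale understates changes of low features. The 36 time course libraries shared 1 fit (24 residual degrees of freedom). The AGO2 libraries, and AGO2 control against total control of day 9, had fits of their own. Ratios were tested by exact permutation (Python 3.11.15, numpy 2.4.6, scipy 1.17.1). Scripts were tested on simulated data. Intervals cover counting error only, and p-values measure only the spread between these libraries.

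The members and lists were chosen with earlier results of these data known. Features named for likeness are the 5 highest and 3 lowest by Pearson r with the members' mean, leaving out Kis2. Replicate numbers paired the AGO2 libraries (correlations of deviations 0.340, 0.269, 0.194 and 0.386). Groups follow the titles. Alternatives were other scalings, filters and pseudocounts, voom on recovered reads, a replicate block, the R1-suffixed libraries and leaving out each replicate. GRCm38.p6 RefSeq tables gave mature sequences.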

Additional observations from a re-analysis of the deposited data

Results flagged for a closer look

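The genotype difference was wider on day 25 than on day 11 by -1.03 (log2) for Mir106a, -0.65 for Mir18b, -0.45 for Mir20b and -0.62 for Mir363 by the interaction term of the limma fit. The same term was called lower for 4 of 6 members of the paralogous miR-17-92 cluster. The libraries labelled none, which entered no comparison, held 2981 reads of the 6 members in control and 205 in Dnmt1 KO. None of the 12 groups of 4 AGO2 libraries examined (6 members, both genotypes) held a single library far from the others.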

How the results depend on the processing

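Of 1451 values recomputed under an alternative, 1340 kept their direction and their side of the threshold or moved within the replicate spread. AGO2 against total RNA depended most on scaling: the members' median of 3.69 became -1.04 with RPM over miRNA features only (Mir106a -1.57, Mir18b -1.72, Mir19b-2 -0.51, Mir20b -1.60, Mir363 -0.09), -0.28 with library totals only (Mir106a -0.79, Mir18b -0.94, Mir20b -0.82), 4.45 with averages of AGO2 replicates and 3.26 with a pseudocount of 10 RPM. Leaving out 1 library at a time gave -0.60 to 3.90 for that median, -1.15 to 3.55 for Mir106a, -1.29 to 3.36 for Mir18b, -0.11 to 4.28 for Mir19b-2 and -1.13 to 3.52 for Mir20b; without a total library 391 to 393 features were tested instead of 1328. With RPM over miRNA features the other medians that moved were -0.05 on day 1 (Mir19b-2 0.13, Mir92-2 0.07), -1.19 on day 9 and -0.45 for control day 25 against day 1, and in AGO2 Mir19b-2 turned to 0.21. With library totals these were -1.17 on day 9 and -0.47 for day 25 against day 1, with Mir19b-2 at 0.07 on day 1 and 0.20 in AGO2. Median-ratio size factors gave -1.09 on day 6 and -1.56 in AGO2. With no filter 2 members were called for the interaction instead of 4, and Mir92-2 was not called on day 11 (adjusted p = 0.168), nor with median-ratio factors (0.0678) or in the R1-suffixed libraries (0.0629). The cause was not tested. Leaving out 1 library at a time gave medians of -0.58 to -0.29 on day 11, -0.63 to -0.43 on day 3, -1.11 to -0.89 on day 6 and -0.66 to -0.42 for the interaction (2 to 5 members called), -0.09 to 0.03 for Mir19b-2 on day 1 and -0.16 to 0.03 for the ratio of Mir19b-2 to Mir19b-1.

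Replicate numbers did not pair the time course libraries (correlations -0.0661 to 0.0468). The replicate block left the members' medians at -0.21 (day 1), -0.43 (day 11), -0.86 (day 25), -0.54 (interaction) and -1.05 (AGO2) and changed no call of a member. For the ratios the block gave exact p = 0.0195 (Mir106a to Mir17), 0.289 (Mir18b), 0.0117 (Mir20b), 0.742 (Mir19b-2), 0.0117 (Mir92-2) and 0.0195 (Mir363) over 512 sign flips. Over all features, voom called 395 instead of 223 (day 11), 421 instead of 903 (day 25) and 318 instead of 529 (interaction). With at least 10 reads in every library it was 136, 391 and 257, and 497 and 540 instead of 902 and 1314 for control day 11 and day 25 against day 1. With no filter it was 1663 on day 25, 63 instead of 98 on day 1, 2135 for day 25 against day 1 and 4749 instead of 1170 for AGO2 against total. Fits of the compared libraries alone called 422 (day 11), 390 (day 25), 350 (interaction) and 858 (day 25 against day 1), and the R1-suffixed libraries 138 on day 11. Depth limits Mir19b-2 most, with 7 to 100 reads per library.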
